A study of Mus musculus with 10 samples.

Results

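The W692A form of AML1/ETO was compared with the GFP vector in mouse blood stem and progenitor cells. The comparison used 7 of the 10 arrays of the series, 4 titled as W692A-transduced and 3 as GFP-transduced, and the 3 AML1/ETO arrays served to show which changes differ between the constructs. All cells came from bone marrow of C57BL/6 mice aged 5 to 6 weeks, were depleted of lineage-positive cells, enriched for Sca1 and grown overnight with IL-3, IL-6 and SCF. They then received MigR1 retrovirus in 2 rounds: the empty vector with its GFP marker, the vector with AML1/ETO, or the vector with AML1/ETO carrying the substitution W692A. At 48 hours after the second round, 25000 live GFP-positive, lineage-negative, Sca1 and cKit double-positive cells per sample were sorted. From each sample 50 ng of RNA was amplified in 2 rounds before labelling, and 1 array was hybridised per sample. The labels describe independent transductions, but not whether these used different mice, so the p-values measure the spread between transduced samples. The sort followed transduction, the sorted gate holds stem and progenitor cells of several kinds, and viral copies per cell are not given in the sources used here. In such bulk samples, fewer cells of a type and less RNA per cell cannot be told apart.

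AML1/ETO joins the DNA-binding runt domain of RUNX1, a master regulator of blood stem cells, to nearly the whole of ETO, a corepressor scaffold. ETO ends in a MYND domain, a zinc-binding fold that holds a short proline-containing motif of the corepressors SMRT and N-CoR, which bring histone deacetylases to the gene. The substitution replaces a tryptophan of that domain with alanine, and the series title names recognition of SMRT and N-CoR by this domain as its subject. Its oligomerisation and runt domains are left as they were, so the question of the comparison is what the fusion still changes without an intact MYND domain.

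The runt domain recognises the letters TGTGGT or TGCGGT, or ACCACA or ACCGCA on the other strand. Promoters of 6 named genes that hold these letters are shown as RefSeq gives them for GRCm38.p6. Named genes without the letters are not shown, so the 6 do not stand for the named genes as a set. Each window runs from 250 bases before to 50 after the gene start, 5′ to 3′ on the gene's strand, with those letters in capitals. The 6 genes are Hemgn, Prg3 and Gzmb, which fell with W692A, Gimap4, which had the largest rise, and Slc18a2 and Flt1, which fell with W692A and did not pass the test with AML1/ETO. They lie at chr4:46404134-46404433 (Hemgn, minus strand), chr2:84987965-84988264 (Prg3, plus), chr14:56262285-56262584 (Gzmb, minus), chr6:48684328-48684627 (Gimap4, plus), chr19:59260628-59260927 (Slc18a2, plus) and chr5:147725962-147726261 (Flt1, minus).
Hemgn: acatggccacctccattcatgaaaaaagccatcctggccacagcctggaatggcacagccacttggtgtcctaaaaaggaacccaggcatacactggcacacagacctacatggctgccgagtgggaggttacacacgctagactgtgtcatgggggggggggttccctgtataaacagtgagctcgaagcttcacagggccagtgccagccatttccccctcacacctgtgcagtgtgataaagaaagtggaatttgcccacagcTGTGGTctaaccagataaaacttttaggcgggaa
Prg3: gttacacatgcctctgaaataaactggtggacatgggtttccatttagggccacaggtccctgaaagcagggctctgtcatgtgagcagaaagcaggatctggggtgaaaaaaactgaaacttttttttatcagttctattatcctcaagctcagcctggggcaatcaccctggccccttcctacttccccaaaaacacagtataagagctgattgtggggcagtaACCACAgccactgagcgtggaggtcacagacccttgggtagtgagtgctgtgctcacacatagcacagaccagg
Gzmb: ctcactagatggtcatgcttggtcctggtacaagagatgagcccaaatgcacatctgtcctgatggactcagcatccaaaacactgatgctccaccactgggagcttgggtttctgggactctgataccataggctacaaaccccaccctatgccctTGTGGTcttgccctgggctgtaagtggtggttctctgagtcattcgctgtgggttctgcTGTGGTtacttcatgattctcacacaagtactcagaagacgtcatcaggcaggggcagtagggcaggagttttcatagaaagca
Gimap4: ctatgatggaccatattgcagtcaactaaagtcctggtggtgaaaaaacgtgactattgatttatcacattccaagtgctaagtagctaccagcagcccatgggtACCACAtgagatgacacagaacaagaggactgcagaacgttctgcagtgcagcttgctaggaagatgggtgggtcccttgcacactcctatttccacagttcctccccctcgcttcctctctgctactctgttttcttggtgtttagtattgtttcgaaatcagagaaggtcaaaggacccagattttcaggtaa
Slc18a2: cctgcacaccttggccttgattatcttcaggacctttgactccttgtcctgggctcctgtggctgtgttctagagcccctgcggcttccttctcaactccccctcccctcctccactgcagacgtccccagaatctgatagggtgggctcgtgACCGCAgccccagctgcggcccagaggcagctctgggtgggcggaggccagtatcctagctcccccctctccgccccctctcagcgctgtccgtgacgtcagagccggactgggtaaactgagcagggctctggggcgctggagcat
Flt1: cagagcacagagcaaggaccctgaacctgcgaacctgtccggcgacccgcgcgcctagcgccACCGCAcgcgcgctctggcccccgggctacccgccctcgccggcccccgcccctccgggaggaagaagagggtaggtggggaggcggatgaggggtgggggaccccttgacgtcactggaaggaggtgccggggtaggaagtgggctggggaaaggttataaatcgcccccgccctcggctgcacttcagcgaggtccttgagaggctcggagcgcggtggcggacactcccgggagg
Counted from 1 at the 5′ end of each window, the letters begin at position 267 in Hemgn, 227 in Prg3, 158 and 217 in Gzmb, 106 in Gimap4, 154 in Slc18a2 and 63 in Flt1. A match describes these letters and is not a measured binding site.

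Such letters are common. They occur in 21.1% of the 18109 promoters of the genes tested and in 22.4% of all 32851 promoters of the table. Of 1742 promoters of genes lower with W692A, 25.5% hold them, against 19.6% of the 1009 promoters of genes higher with W692A. Among the 20 largest falls it was 7 of 17 promoters, and among the 20 largest rises 5 of 20. For genes changed with W692A and not with AML1/ETO the share was 24.2% of 248 promoters.

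Values are log2 intensities. A background bound of 2.04 was set by the brightest of 27 bacterial control probe sets on any array, and a fold against a group with an array below it is given as at least that size. Over the 8301 genes above the bound, correlations were 0.988 to 0.990 among GFP arrays, 0.982 to 0.992 among W692A arrays and 0.951 to 0.962 between the groups. The signs of RNA quality moved with the groups. The 3′ minus 5′ difference of the Gapdh control probe sets was 4.83 to 4.99 with GFP and 3.81 to 4.17 with W692A. Signal of 18S ribosomal RNA probe sets was at most 8.13 on the GFP arrays and at least 8.56 on the W692A arrays. Neither measure overlaps between the groups. AML1/ETO replicates 1 and 2 gave Gapdh differences of 4.08 and 4.01 but replicate 3 gave 5.04, and that array stands apart for several genes given below.

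The sorted phenotype was checked against its markers. Of 26 measured stem and progenitor genes 22 were above the bound, among them Cd34, Procr, Hlf, Meis1 and Hoxa9, while the probe set of Kit, a marker of the sort, was below the bound on all 10 arrays (1.11 to 1.33 with GFP, 0.95 to 1.37 with W692A). Some markers of mature cells were below the bound in both groups, such as Cd79a, Pax5 and Cd3e of lymphocytes, Hba-a1 and Slc4a1 of red cells, Itgam of myeloid cells, and Pecam1, Cdh5 and Col1a1 of endothelium and stroma. Other genes of those cells were above it. Ighm of B cells read 8.53 to 8.77 with GFP, Csf1r and Adgre1 of macrophages 7.14 to 7.41 and 4.59 to 4.74, and granule genes were bright as well. In all, 9 of 19 erythroid, 10 of 23 lymphoid, 17 of 25 monocyte and macrophage and 17 of 22 neutrophil genes were above the bound, and the part of such cells in the results was not tested.

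With W692A, 2642 of 18193 genes passed the limma threshold (Benjamini-Hochberg adjusted p under 0.05), 14.5% of those tested, 991 of them higher (5.45%) and 1651 lower (9.07%). The change was at least 1.5-fold for 1637 genes, 574 higher and 1063 lower. A few genes changed far more. With values below the bound set to it, 34 rose and 36 fell by at least 4-fold. Of the 2642 genes, 37.5% were higher, and after a further quantile normalization 48.3% were. The median difference over all genes was 0.0066. With the Gapdh difference of each array as a covariate, 506 genes passed (230 higher, 276 lower), in a fit whose standard errors were 1.73 times as large in the median, and 99.0% of the 2642 genes kept their sign. Of the 233 genes named by rule, 118 no longer passed in that fit and 4 turned in sign. Without GFP replicate 1, 651 genes were higher, the array whose absence moved that count most.

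**Figure D1:**
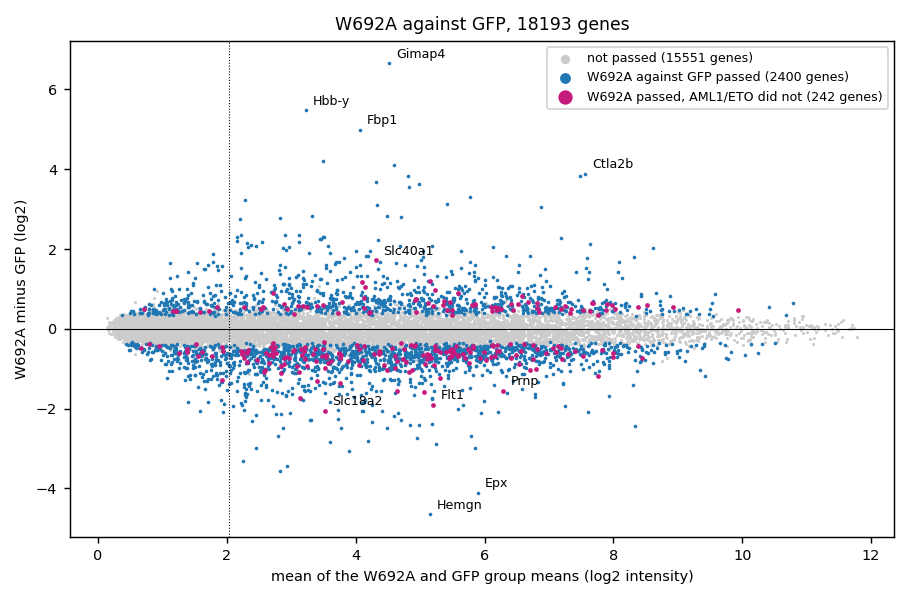
Difference between the W692A and GFP group means (log2) against their mean intensity (log2) for 18193 genes. Each point is a gene, blue and pink points passed the limma threshold, and the dotted line is the background bound of 2.04. Pink marks the 242 genes that passed with W692A, did not pass with AML1/ETO and differed between the constructs in the same direction. Rises reach 6.66 (Gimap4) and falls 4.64 (Hemgn), while 2125 of the 2642 genes that passed differ by less than 1.

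The AML1/ETO arrays show how many of these changes differ between the constructs. AML1/ETO changed 5207 genes against the same 3 GFP arrays (28.6%), and 3765 differed between W692A and AML1/ETO (20.7%), with 9.61% of all genes higher and 11.1% lower with W692A. Of the 2642 genes changed with W692A, 1543 did not pass the direct test against AML1/ETO, which does not show that they are equal, and 1099 did. Among those higher with W692A, 405 were below their AML1/ETO level and 102 above it. Among those lower with W692A, 374 were above their AML1/ETO level and 218 below it.

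The construct itself could be checked only in part. Runx1, whose product supplies the runt domain, read 5.86, 5.90 and 5.81 with GFP and 7.04, 7.09, 6.67 and 6.93 with W692A. Every W692A array exceeded every GFP array, by 1.07 ± 0.124 in the mean (SE, 4 arrays against 3, limma adjusted p = 3.04e-05), and 4 of 5 other Runx1 probe sets passed in the same direction. Whether these probe sets read the mouse gene, the virus or both was not tested. Runx1t1, the mouse ETO gene, was below the bound on all 7 arrays, at 0.42 to 1.03 with GFP and 0.53 to 0.86 with W692A, against 3.13, 2.10 and 3.13 with AML1/ETO. No probe set is annotated to the fusion, so its amount per cell was not measured, and an effect of the substitution and of the amount of fusion cannot be told apart.

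The largest rises with W692A included an immune GTPase, a gluconeogenic enzyme, an embryonic globin, chemokines and regulators of stem cells. Gimap4, a GTPase of lymphocyte survival, read 1.45, 0.88 and 1.24 with GFP and 7.82, 7.52, 8.23 and 7.82 with W692A. It was below the bound on every GFP array and above it on every W692A array, at least 55.9-fold higher, and its level did not pass the test against AML1/ETO (difference -0.29, adjusted p = 0.391). Fbp1, the fructose bisphosphatase of gluconeogenesis, read 1.51, 1.56 and 1.63 with GFP and 6.20, 6.74, 6.50 and 6.77 with W692A. Hbb-y, the embryonic beta-like globin, read 0.26, 0.63 and 0.55 with GFP and 6.44, 5.40, 6.20 and 5.82 with W692A. Both genes were below the bound on every GFP array and above it on every W692A array, at least 22.8-fold and at least 15.2-fold higher. Both stood lower than with AML1/ETO (-1.31 and -2.54, adjusted p = 1.97e-05 and 5.26e-07).

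Secreted factors and surface proteins rose in the same samples. Cxcl3, a chemokine that draws neutrophils, read 1.09, 1.62 and 1.48 with GFP and 5.96, 5.74, 4.95 and 5.75 with W692A. Its neighbour Cxcl2 read 3.28, 3.56 and 2.69 with GFP and 7.21, 6.29, 6.90 and 6.82 with W692A. The groups were more than 2 log2 units apart for both, and the rises were at least 11.8-fold and 12.3-fold, against at least 62.0-fold and 75.4-fold with AML1/ETO. Vegfc, a growth factor of lymphatic vessels, read 2.83, 3.36 and 2.52 with GFP and 6.78, 6.83, 6.51 and 6.80 with W692A, 14.2-fold higher. Cd59a, a surface inhibitor of complement, read 2.54, 2.42 and 2.45 with GFP and 6.19, 6.09, 6.28 and 6.06 with W692A, 12.9-fold higher. The difference for Cd59a, 3.69 ± 0.106 (SE, limma adjusted p = 2.14e-11), was large against the spread of either group. Adgrl4, an adhesion receptor of vessels, read 4.25, 3.83 and 3.47 with GFP and 7.74, 6.50, 7.13 and 6.57 with W692A, 8.81-fold higher. Its AML1/ETO values were 6.58, 6.28 and 5.80, and the difference of 0.77 between the constructs did not pass (adjusted p = 0.0599).

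The 20 rises also held Hlf, Hmga2, Fos and Zfhx3, which act in the nucleus. Hlf, a transcription factor of blood stem cells, read 3.71, 4.36 and 4.32 with GFP and 7.52, 7.27, 7.50 and 7.42 with W692A, 9.85-fold higher. Hmga2, an architectural chromatin factor of fetal haematopoiesis, read 5.75, 5.44 and 5.54 with GFP and 9.52, 9.36, 9.30 and 9.40 with W692A, 14.1-fold higher. For Hmga2 the AML1/ETO level did not pass the test against W692A (-0.25, adjusted p = 0.243), while Hlf was lower than with AML1/ETO (-0.99, adjusted p = 0.000163). Fos, a subunit of the AP-1 factor, read 3.35, 2.98 and 2.87 with GFP and 5.92, 5.67, 5.96 and 6.05 with W692A, 7.12-fold higher. Zfhx3, a large homeodomain and zinc finger protein, read 2.06, 2.79 and 2.23 with GFP and 4.43, 4.68, 5.04 and 4.49 with W692A, 4.92-fold higher. Neither gene had overlapping groups, as the choice of the 20 required.

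The remaining large rises were of 2 cysteine protease inhibitor-like genes, a matrix protein and signalling genes. Ctla2a read 5.64, 5.30 and 5.11 with GFP and 8.39, 8.55, 8.28 and 8.36 with W692A, 8.27-fold higher, and Ctla2b rose 14.8-fold. These genes are close copies, so probe sets of one may read both. Ntn4, a secreted netrin, read 3.11, 2.49 and 2.71 with GFP and 5.62, 5.87, 6.17 and 5.84 with W692A, 8.60-fold higher. Csgalnact1, which starts chondroitin sulfate chains, rose 7.01-fold, Dab2, an endocytic adaptor, at least 6.06-fold, and Phlda1 at least 4.88-fold. Rhoj, a small GTPase of endothelium, rose 11.7-fold against 69.9-fold with AML1/ETO.

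**Figure D2:**
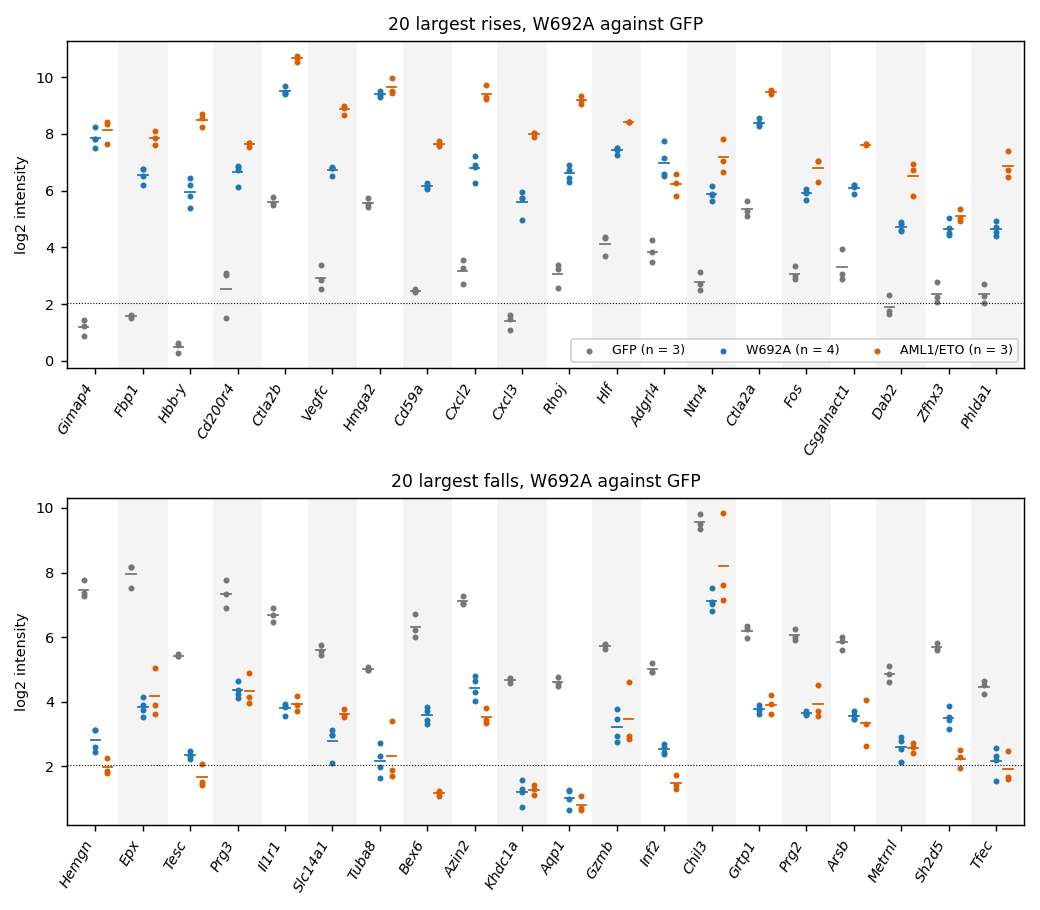
Log2 intensity on every array for the 20 largest rises (upper panel) and the 20 largest falls (lower panel) with W692A against GFP. Points are arrays, short lines group means, and the dotted line the background bound of 2.04. The 40 were chosen for their size among genes that passed and whose GFP and W692A arrays do not overlap. That separation was thus a condition of the choice. Of the 20 rises 16 were lower than with AML1/ETO, and of the 20 falls 6 were above the AML1/ETO level and 1 below it. Over all genes, 11.1% were lower and 9.61% higher with W692A than with AML1/ETO.

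The largest falls were of erythroid, eosinophil and signalling genes. Hemgn, a nuclear protein of red cell precursors and a reported RUNX1 target, read 7.27, 7.78 and 7.36 with GFP and 3.12, 2.61, 2.43 and 3.14 with W692A. It fell by 4.64 on the log2 scale, and still stood above its AML1/ETO level of 1.80 to 2.27 (difference 0.85, adjusted p = 0.00421). Aqp1, the water channel of red cells, read 4.57, 4.75 and 4.50 with GFP and 1.24, 0.98, 0.64 and 1.28 with W692A, below the bound on every W692A array.

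Genes of the eosinophil granule fell together. Epx, the eosinophil peroxidase, read 8.18, 7.52 and 8.16 with GFP and 3.90, 3.76, 4.15 and 3.54 with W692A. Prg3 and Prg2, the major basic proteins, read 7.33, 6.91 and 7.76, and 6.01, 5.90 and 6.26, with GFP. With W692A they read 4.37, 4.66, 4.13 and 4.25, and 3.66, 3.71, 3.63 and 3.58. The falls were 17.3-fold, 7.91-fold and 5.32-fold, and none of the 3 genes passed the test against AML1/ETO (adjusted p = 0.466, 0.979 and 0.323).

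Other large falls came from several cell functions. Il1r1, the interleukin-1 receptor, read 6.92, 6.47 and 6.68 with GFP and 3.87, 3.84, 3.55 and 3.92 with W692A, 7.43-fold lower. Gzmb, a protease of cytotoxic granules, read 5.77, 5.63 and 5.79 with GFP and 3.78, 2.75, 3.46 and 2.95 with W692A, 5.64-fold lower, and with the Gapdh covariate it no longer passed (adjusted p = 0.170). Azin2, an antizyme inhibitor of polyamine control, read 7.02, 7.06 and 7.28 with GFP and 4.29, 4.80, 4.02 and 4.65 with W692A, 6.42-fold lower against 12.1-fold with AML1/ETO. Chil3, a chitinase-like protein of myeloid cells, fell 5.43-fold but not with the covariate (adjusted p = 0.811). Grtp1 fell 5.34-fold, Arsb, a lysosomal sulfatase, 4.84-fold, Metrnl, a secreted meteorin-like protein, 4.80-fold, and Tfec, a transcription factor of macrophages, at least 4.53-fold. Inf2, a formin, fell 5.60-fold, and Tuba8, a tubulin, at least 6.64-fold. Bex6 also differed between the constructs (2.42, adjusted p = 1.32e-07), for it read 3.72, 3.45, 3.31 and 3.85 with W692A against 6.21, 6.72 and 6.01 with GFP, and 1.19, 1.23 and 1.08 with AML1/ETO. Of the 40 largest changes, 38 still passed with the Gapdh covariate, and all 40 did in each of the other alternatives run. The 40 were chosen for size and separation on these same arrays, which favours passing again. Among all 233 genes named by rule, 118 no longer passed with that covariate.

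Blood transcription factors went both ways. Of 38 measured, 12 rose and 8 fell with W692A (median difference -0.09), against 15 and 12 with AML1/ETO. Over all genes 5.45% rose and 9.07% fell with W692A, and 12.9% and 15.8% with AML1/ETO. With the Gapdh covariate 3 rose and 3 fell. Cebpa, the factor that commits cells to granulocytes, read 5.11, 5.74 and 6.06 with GFP and 3.89, 4.13, 4.32 and 4.42 with W692A. The fall of 2.73-fold (adjusted p = 0.000198) was smaller than the 8.04-fold fall with AML1/ETO, and the constructs differed by 1.56 (adjusted p = 5.94e-05). Gfi1b, a repressor needed for red cells and platelets, read 5.34, 5.43 and 5.26 with GFP and 3.81, 3.93, 4.00 and 4.10 with W692A, 2.61-fold lower. Nfe2, the factor of platelet release, read 7.63, 7.60 and 7.69 with GFP and 5.95, 5.64, 6.05 and 6.03 with W692A, 3.29-fold lower. Both lay apart on every array, and Nfe2 was lower still with AML1/ETO (8.06-fold).

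Spi1, which encodes the myeloid factor PU.1, read 2.80, 2.97 and 3.32 with GFP and 2.29, 2.20, 2.83 and 2.42 with W692A. Those groups overlapped, the fall of 1.51-fold had an adjusted p of 0.0217, and after quantile normalization it no longer passed (0.0611), nor without GFP replicate 2 or 3 or W692A replicate 1, 2 or 4. Klf1, the erythroid Krüppel factor, fell at least 2.36-fold. Among the rises were Id3, an inhibitor of helix-loop-helix factors (at least 2.47-fold), Ikzf2, or Helios (1.99-fold, and not past the threshold as the mean of its probe sets), and Gata2, a stem cell factor (1.43-fold), which no longer passed without GFP replicate 1, W692A replicate 2 or W692A replicate 4.

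Some factors central to these cells did not pass. Gfi1 read 3.15, 3.46 and 3.35 with GFP and 3.28, 3.87, 3.05 and 3.99 with W692A, a difference of 0.23 ± 0.207 (adjusted p = 0.571), whereas with AML1/ETO it was 5.30-fold higher. The difference between the constructs, -2.18, did pass (adjusted p = 3.28e-06). Gata1 differed by -0.58 (adjusted p = 0.111, but 0.00993 in a fit of W692A and GFP alone and 0.0130 without AML1/ETO replicate 3), Meis1 by -0.34 (0.144) and Hoxa9 by -0.26 (0.260). Of 23 measured Hox genes and cofactors 1 passed, Pbx3, which rose 1.67-fold. Of 21 measured corepressors and ETO partners, Hdac2, Bcl6 and Zbtb16 fell and none rose, a share near the 14.5% of all genes, and each of the 3 calls was lost without 1 or more single arrays, GFP replicate 2 for Bcl6, GFP replicate 1 for Zbtb16, and either of these for Hdac2.

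Several genes of stem and multipotent progenitors rose. Of 26 measured, 12 rose and 4 fell with W692A (5.45% and 9.07% of all genes), with a median difference of 0.34 against 0.0066 over all genes. With values below the bound set to it, both medians were 0.00. With AML1/ETO 14 rose and 5 fell (12.9% and 15.8% of all genes). Of the 26, 10 were lower with W692A than with AML1/ETO (11.1% of all genes). With the Gapdh covariate 7 rose and 3 fell. Procr, the protein C receptor that marks stem cells, read 3.52, 3.06 and 3.15 with GFP and 5.54, 4.94, 5.20 and 5.10 with W692A, 3.87-fold higher, with AML1/ETO at 7.86, 7.42 and 7.82. The 3 groups stood apart, and the difference of -2.51 between the constructs passed (adjusted p = 7.07e-08). Tek, the angiopoietin receptor, was below the bound on the GFP arrays (1.43, 1.80 and 0.99) and read 3.59, 3.53, 3.59 and 3.24 with W692A. Eng, or endoglin, rose 3.46-fold, Cd48 3.05-fold, Slamf1 2.75-fold and Cd34 2.67-fold. Cd48, which marks progenitors rather than stem cells, rose along with the stem cell genes. Angpt1, the ligand of Tek, went the other way, from 4.00, 4.18 and 3.29 with GFP to 2.22, 1.41, 1.71 and 1.41 with W692A, at least 3.34-fold lower. Flt3, a cytokine receptor of lymphoid-primed progenitors, fell 1.94-fold, and Ndn 1.70-fold.

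Several red cell and platelet genes fell. Of 19 measured erythroid genes 7 fell and none rose, where 9.07% of all genes fell, and 10 of the 19 were below the bound in both groups. With the covariate 3 fell. Of 19 measured megakaryocyte and platelet genes 9 fell and 2 rose (3 and 1 with the covariate), with a median difference of -0.48. With values below the bound set to it, that median was -0.17. Selp, the P-selectin of platelet granules, read 6.07, 6.16 and 5.98 with GFP and 4.41, 4.26, 4.25 and 4.28 with W692A, 3.40-fold lower. Itgb3 and Itga2b, the chains of the fibrinogen receptor, fell 2.54-fold and 1.98-fold. Rab27b, a GTPase of granule release, fell 3.78-fold, and Gp1bb 2.72-fold. Pf4, a platelet chemokine, rose 1.43-fold with overlapping groups, a call lost without GFP replicate 2 or 3 or W692A replicate 1 or 3, and Treml1 rose 1.95-fold.

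Neutrophil granule genes went both ways. In the neutrophil list 5 of 22 measured genes rose and 7 fell, against 5.45% and 9.07% of all genes, and with the covariate 2 rose and 2 fell and the median difference went from -0.29 to 0.20. With values below the bound set to it, the median without the covariate was -0.08. Elane, the neutrophil elastase of primary granules, read 6.32, 6.59 and 6.97 with GFP and 4.44, 5.03, 4.29 and 5.11 with W692A, 3.75-fold lower against 2.32-fold with AML1/ETO. Ngp, a protein of secondary granules, read 7.45, 6.39 and 7.15 with GFP and 4.96, 5.50, 4.92 and 4.19 with W692A, 4.30-fold lower, a call lost without GFP replicate 1, GFP replicate 3 or W692A replicate 4, and with an intensity-trended prior. With the Gapdh covariate its sign turned (0.18, adjusted p = 0.962). Serpinb1a, an elastase inhibitor, rose 4.04-fold and Mmp8, a collagenase, at least 2.33-fold. The mean log2 intensity over the list's measured genes spanned 4.57 to 4.87 on the GFP arrays and 4.36 to 4.71 on the W692A arrays.

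Cpa3 and Hdc, genes of mast cells, rose. Cpa3, the mast cell carboxypeptidase, read 7.62, 7.26 and 7.41 with GFP and 9.06, 9.24, 9.38 and 9.23 with W692A, 3.48-fold higher. Hdc, which makes histamine, read 4.32, 3.95 and 3.95 with GFP and 6.02, 6.25, 5.86 and 5.95 with W692A, 3.85-fold higher. Both groups lay apart, and both genes were higher again with AML1/ETO (8.56-fold and 16.6-fold). In that list of 21 measured genes 5 rose and 4 fell (4 and 3 with the covariate), against 5.45% and 9.07% of all genes. The proteases Mcpt4, Cma1, Tpsab1 and Tpsb2 of mature mast cells were below the bound in both groups.

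Among 25 measured genes of monocytes, macrophages and dendritic cells 6 rose and 2 fell, where 5.45% of all genes rose and 9.07% fell. With AML1/ETO 6 rose and 9 fell, where 12.9% and 15.8% of all genes did. With the covariate 2 rose and 3 fell with W692A. Adgre1, a surface receptor of macrophages, read 4.65, 4.59 and 4.74 with GFP and 6.49, 6.55, 6.60 and 6.79 with W692A, 3.86-fold higher. Csf1r, the receptor of the macrophage growth factor, read 7.33, 7.14 and 7.41 with GFP and 8.33, 8.29, 8.44 and 8.62 with W692A. Its AML1/ETO values, 7.69, 7.78 and 7.73, lay between, so that the rise was 2.18-fold with W692A and 1.35-fold with AML1/ETO, and the difference of 0.69 passed (adjusted p = 0.000529). Cd14 rose 2.66-fold, Lyz2 1.94-fold and Irf8 1.70-fold, while Fcgr1, Ccr2, Itgax and Cx3cr1 were below the bound in both groups.

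Lymphoid genes fell or rose singly. Of 23 measured, 3 rose and 6 fell (5.45% and 9.07% of all genes), and 13 were below the bound in both groups. Ighm, the immunoglobulin mu chain, read 8.66, 8.53 and 8.77 with GFP and 6.44, 6.52, 6.36 and 6.96 with W692A, 4.24-fold lower, and Thy1 fell 2.85-fold. Dntt, the terminal transferase of early lymphoid cells, read 5.39, 5.59 and 5.45 with GFP and 6.76, 6.94, 6.81 and 6.61 with W692A, 2.47-fold higher. Notch1 rose 2.10-fold. Of 20 stromal and endothelial genes 8 rose and 2 fell (6 and 1 with the covariate), with 12 below the bound in both groups. Those that rose included Tek, Vegfc, Rhoj and Eng, given above, and Vim (2.37-fold). Pdgfrb, a receptor of mesenchymal cells, fell to below the bound from 3.34, 4.65 and 3.86, at least 3.76-fold.

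Most Gimap genes rose. Of 8 Gimap genes, GTPases of lymphocyte survival that lie in a cluster, 6 rose and none fell with each construct, with a median difference of 1.60 for W692A and 1.64 for AML1/ETO. Over all genes 5.45% rose with W692A and 12.9% with AML1/ETO. With the covariate 4 rose. Gimap9 read 3.12, 3.36 and 3.33 with GFP and 5.64, 5.02, 4.52 and 5.24 with W692A, and Gimap8 read 5.26, 4.95 and 4.61 with GFP and 6.70, 6.34, 6.76 and 6.59 with W692A. Neither overlapped, and the rises were 3.56-fold and 3.16-fold. Gimap6 rose 3.19-fold, Gimap1 2.04-fold and Gimap7 at least 1.93-fold, while Gimap3 and Gimap5 did not pass. Gimap8 was the 1 member lower than with AML1/ETO (-0.98, adjusted p = 0.000446).

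All 3 measured CD200 receptors, which restrain myeloid cells, rose as well. Cd200r4 read 3.02, 3.08 and 1.51 with GFP and 6.86, 6.84, 6.13 and 6.73 with W692A, at least 15.2-fold higher. Cd200r3 and Cd200r1 rose at least 4.49-fold and at least 3.02-fold, and all 3 stood below their AML1/ETO level (adjusted p = 0.0268, 8.22e-06 and 0.000263). Their ligand gene Cd200 fell, from 3.64, 3.35 and 2.71 with GFP to 2.35, 1.51, 1.95 and 1.45 with W692A, at least 2.17-fold. These receptor genes are close copies, and probe sets may read more than 1 of them.

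Cytokine genes showed a part of what AML1/ETO did. Of 34 chemokines and cytokines 10 rose and 6 fell with W692A, against 20 and 3 with AML1/ETO (7 and 1 for W692A with the covariate), and 23 were lower with W692A than with AML1/ETO. Over all genes 5.45% rose and 9.07% fell with W692A, and 12.9% and 15.8% with AML1/ETO. The share lower with W692A than with AML1/ETO was 11.1% of all genes. Il15, a growth factor of natural killer cells, was below the bound with GFP (1.11, 1.61 and 1.59) and read 4.44, 4.44, 3.86 and 4.09 with W692A, at least 4.49-fold higher. In 36 receptors and integrins 9 rose and 9 fell (5 and 3 with the covariate). Itga4, the alpha4 integrin that anchors progenitors, read 6.40, 6.07 and 6.11 with GFP and 7.48, 7.56, 7.48 and 7.63 with W692A, 2.54-fold higher. Itgb2, the common chain of leukocyte integrins, fell from 6.45, 6.17 and 6.64 to 4.89, 4.88, 4.83 and 4.96, 2.89-fold. Csf2rb2, a beta chain of the mouse IL-3 receptor, rose 2.05-fold, and Itga6 1.90-fold.

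Among 24 genes of JAK-STAT and MAP kinase feedback 5 rose and 5 fell, against 5.45% and 9.07% of all genes, and 2 and 3 did with the covariate. Socs2, an inhibitor of growth factor signals, read 6.96, 7.70 and 7.57 with GFP and 8.37, 8.34, 8.35 and 8.53 with W692A, 1.98-fold higher. Pim2 and Pim3, survival kinases induced by STAT factors, fell 3.13-fold and 1.98-fold. Jak2 read 8.05, 7.81 and 7.74 with GFP and 7.32, 7.21, 7.19 and 7.03 with W692A, 1.60-fold lower, and did not pass with AML1/ETO (-0.12, adjusted p = 0.672). Of 29 immediate early and NF-kappaB genes 8 rose and 4 fell. The 8 were AP-1 and serum response genes such as Fos, Egr1 (2.38-fold), Ier2 (2.18-fold) and Jun (2.13-fold), and with the covariate 1 of the list rose. The 4 were Myc (1.83-fold), Rel, Relb and Tnfaip3, the inhibitor of NF-kappaB (1.83-fold). Of 19 apoptosis regulators 5 fell and 2 rose (9.07% and 5.45% of all genes), and with the covariate 2 fell and none rose. Bcl2, a survival factor, fell from 5.47, 5.62 and 5.23 with GFP to 3.48, 3.32, 3.26 and 3.47 with W692A, 4.16-fold.

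By their medians, cell division genes stayed near their GFP level, in contrast to AML1/ETO. Of 27 measured S phase genes 1 rose and 2 fell with W692A, and 24 fell with AML1/ETO. Of 29 measured G2 and M phase genes 5 fell with W692A and 28 with AML1/ETO. Over all genes 5.45% rose and 9.07% fell with W692A, and 15.8% fell with AML1/ETO. The direct test between the constructs passed for 24 of 27 and 29 of 29, all higher with W692A, where 9.61% of all genes were. Median differences from GFP were -0.12 and -0.06 with W692A and -1.03 and -1.04 with AML1/ETO. Ccne1, the cyclin of entry into S phase, rose from 6.09, 6.02 and 6.22 with GFP to 6.59, 6.77, 6.83 and 6.69 with W692A, 1.53-fold, and did not pass with AML1/ETO. Pcna, the sliding clamp, fell 1.66-fold, and Aurkb, a mitotic kinase, 1.63-fold, a call lost without GFP replicate 2.

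DNA repair genes fell in part. Of 29 measured, 8 fell and 1 rose with W692A (9.07% and 5.45% of all genes, and none of the list with the covariate), and 19 fell with AML1/ETO (15.8% of all genes). Xrcc6, which encodes Ku70 of end joining, read 5.88, 5.85 and 5.98 with GFP and 4.89, 4.85, 4.93 and 4.76 with W692A, 2.06-fold lower, and read 4.02, 4.14 and 4.62 with AML1/ETO. Atr and Atm, the checkpoint kinases, fell 1.80-fold and 1.74-fold. In the list of p53 targets and CDK inhibitors 3 of 22 rose and 5 fell, against 5.45% and 9.07% of all genes, and with the covariate none rose and 1 fell. Cdkn1c, or p57, fell at least 1.36-fold to below the bound, and Ccng1 2.02-fold.

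The interferon response marked the other large contrast. Of 31 measured interferon genes 4 rose and 2 fell with W692A, whereas 28 rose with AML1/ETO, and 28 were lower with W692A than with AML1/ETO. Over all genes 5.45% rose and 9.07% fell with W692A, 12.9% rose with AML1/ETO, and 11.1% were lower with W692A than with AML1/ETO. Ifit1 read 3.39, 3.46 and 2.75 with GFP, 3.54, 3.80, 3.50 and 3.60 with W692A, and 8.47, 8.76 and 8.39 with AML1/ETO. The W692A difference of 0.41 ± 0.163 did not pass (adjusted p = 0.121), though it did after quantile normalization (0.51, adjusted p = 0.0444). Iigp1, an interferon-induced GTPase, rose at least 1.85-fold with W692A, at 2.77, 3.09, 2.52 and 3.33, from below the bound on every GFP array, and stood at 6.73, 6.24 and 6.66 with AML1/ETO. Rsad2, or viperin, rose 1.88-fold and Gbp3 1.70-fold. With the covariate 1 of the 31 rose.

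Metabolic and stress genes were described by the same lists, to be read against the 5.45% of all genes that rose and the 9.07% that fell. Of 20 glycolysis and gluconeogenesis genes 5 rose and 1 fell (3 and 1 with the covariate), among them Hk1 (1.85-fold) and the glucose transporter Slc2a1 (1.70-fold) beside Fbp1. Of 18 cholesterol synthesis genes 5 fell and 1 rose (none with the covariate), led by Dhcr7, the last enzyme of the path (1.90-fold lower). Of 22 heat shock and unfolded protein genes 2 rose and 3 fell, with Asns, asparagine synthetase, 2.08-fold lower and Trib3 1.65-fold higher. Of 27 oxidative phosphorylation genes 3 rose and 2 fell, and of 18 cytosolic ribosomal protein genes Rpl4 alone passed (1.31-fold lower), and it no longer did without any 1 of the GFP or W692A arrays. In a list of 16 fetal genes 4 rose and 2 fell, and of 3 beta-globin genes Hbb-y and Hbb-bh1 rose, the latter with W692A values of 1.09 to 2.35 around the bound and a call lost without any 1 of the GFP arrays. In 29 Notch and Wnt genes 3 rose and 1 fell, Ccnd1, or cyclin D1 (2.69-fold lower). Among 25 genes reported elsewhere as targets of RUNX1 or of its fusion, 3 rose and 9 fell, where 5.45% and 9.07% of all genes did, and with the covariate 1 rose and 4 fell.

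**Figure D3:**
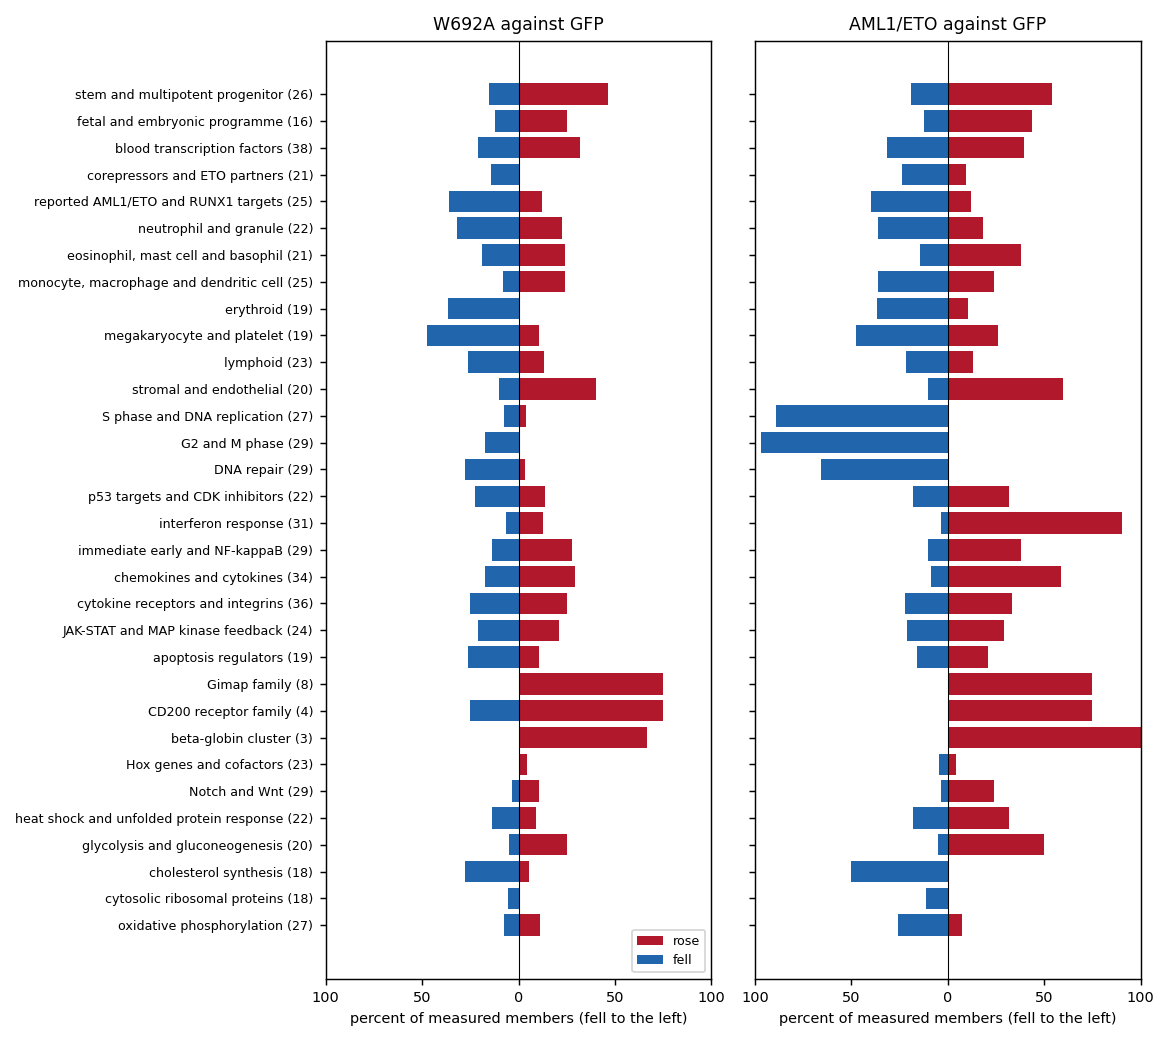
Percent of the measured members of each of 32 gene lists that rose (red, right) or fell (blue, left), for W692A against GFP (left panel) and AML1/ETO against the same GFP arrays (right panel). Numbers in brackets are measured members. S phase, G2 and M phase and interferon lists are short on the left and long on the right, while Gimap and CD200 receptor genes rose in the same share with both.

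**Figure D4:**
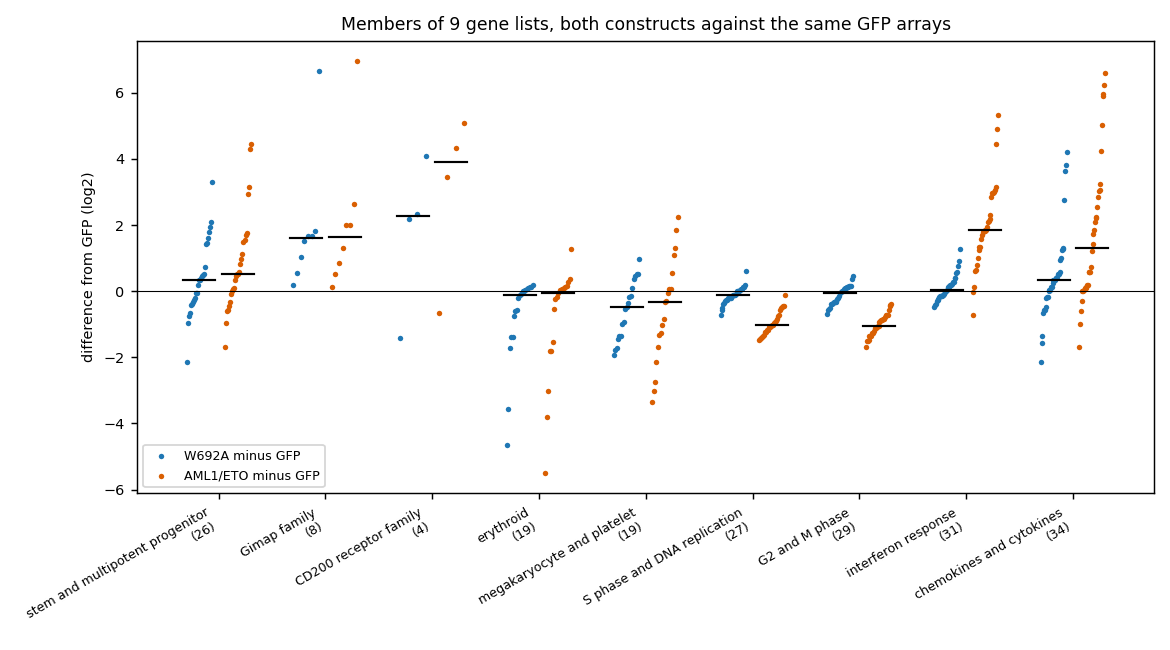
Difference from GFP (log2) of each measured member of 9 lists, with W692A in blue and AML1/ETO in orange, ordered by size within a list, and black lines at the median. Both share the GFP arrays. The medians of the S phase, G2 and M phase and interferon lists lie near 0 with W692A and at -1.03, -1.04 and 1.85 with AML1/ETO.

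Some genes passed the test with the substituted fusion and not with the intact one. The rule required a pass against GFP with W692A, no pass with AML1/ETO, and a difference between the constructs in the same direction. It gave 242 genes (1.33% of those tested), 77 higher (0.423%) and 165 lower (0.907%). Here and elsewhere, not with AML1/ETO means only that this test was not passed. With AML1/ETO, Klrd1 differed by -0.61 (limma adjusted p = 0.0524) and Slc18a2 by -0.59 (0.245). Without the test of the difference it would be 615. Of the 242, 227 had a W692A or GFP mean above the bound, and 130 changed at least 1.5-fold (30 higher, 100 lower). For 212 the W692A arrays lay apart from both other groups, which the rule itself favours. Over all genes, W692A and GFP arrays did not overlap for 22.3%, and the share apart from both groups was not counted. The set depends on few arrays. Without AML1/ETO replicate 3 it held 159 genes (47 higher), without GFP replicate 1, 156 (44 higher), and without W692A replicate 2 it held 51 higher ones. The share of higher genes was 31.8%, and 56.5% after quantile normalization and 49.0% after subtracting array medians. With the Gapdh covariate 38 genes met the rule, although 98.8% of the 242 kept their sign and their median absolute difference went from 0.60 to 0.54. Of the 30 named here, 5 passed against GFP in that fit: Slc40a1, Zc3h13, Prnp, Ccl17 and Ogt.

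The largest of the rises was of an iron exporter. Slc40a1, or ferroportin, through which iron leaves the cell, read 3.28, 3.63 and 3.43 with GFP and 5.33, 5.05, 5.37 and 4.92 with W692A. With AML1/ETO it read 3.02, 3.19 and 3.34. Every W692A array stood above every other array, by 1.72 ± 0.139 against GFP (3.30-fold, adjusted p = 7.50e-07) and 1.98 against AML1/ETO (adjusted p = 1.54e-07), and its other probe set, below the bound, did not pass. Zc3h13, a subunit of the complex that methylates adenosine in RNA, read 3.60, 3.58 and 3.70 with GFP, 4.72, 4.70, 4.71 and 4.58 with W692A, and 3.76, 3.06 and 3.47 with AML1/ETO. It was 2.07-fold higher than with GFP, though neither of its 2 other probe sets passed.

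Further rises were of regulators and of a matrix gene. Col4a2, a chain of basement membrane collagen, read 3.45, 3.63 and 3.46 with GFP and 3.84, 5.09, 5.05 and 4.80 with W692A, 2.26-fold higher, with replicate 1 close to the controls. Tle3, a corepressor of the Groucho family, read 5.01, 4.90 and 5.16 with GFP, 5.61, 5.76, 5.77 and 5.73 with W692A, and 4.67, 4.87 and 4.57 with AML1/ETO. The W692A arrays were above all others. Irf8, the factor of monocyte and dendritic cells, read 3.90, 3.45 and 3.88 with GFP and 4.38, 4.63, 4.42 and 4.61 with W692A, and its other probe set passed as well. Ski, a corepressor of TGF-beta signals, rose 1.60-fold, and Gclc, the enzyme that limits glutathione synthesis, 1.58-fold. The other probe set of each gene, above the bound, did not pass (0.35 for Ski and -0.03 for Gclc).

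Pclaf, a partner of the sliding clamp, read 6.15, 6.33 and 6.05 with GFP, 7.25, 6.83, 6.84 and 7.08 with W692A, and 6.08, 5.49 and 5.66 with AML1/ETO. It rose 1.77-fold with W692A. Klrd1, the CD94 chain of natural killer receptors, rose at least 1.83-fold, a call lost without GFP replicate 1. Birc6, an inhibitor of apoptosis, rose 2.30-fold, but GFP replicate 1 read 3.84 against 4.90 and 4.91, and none of its 5 other probe sets passed. Gtf3c2 rose 1.65-fold while another of its probe sets passed in the opposite direction, so its direction is uncertain. Iftap (1.97-fold), Srpk2 (1.85-fold), Mkks (1.69-fold) and Mrpl45 (1.59-fold) complete the 15 rises, and as means over their probe sets Birc6, Srpk2 and Mkks no longer passed.

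**Figure D5:**
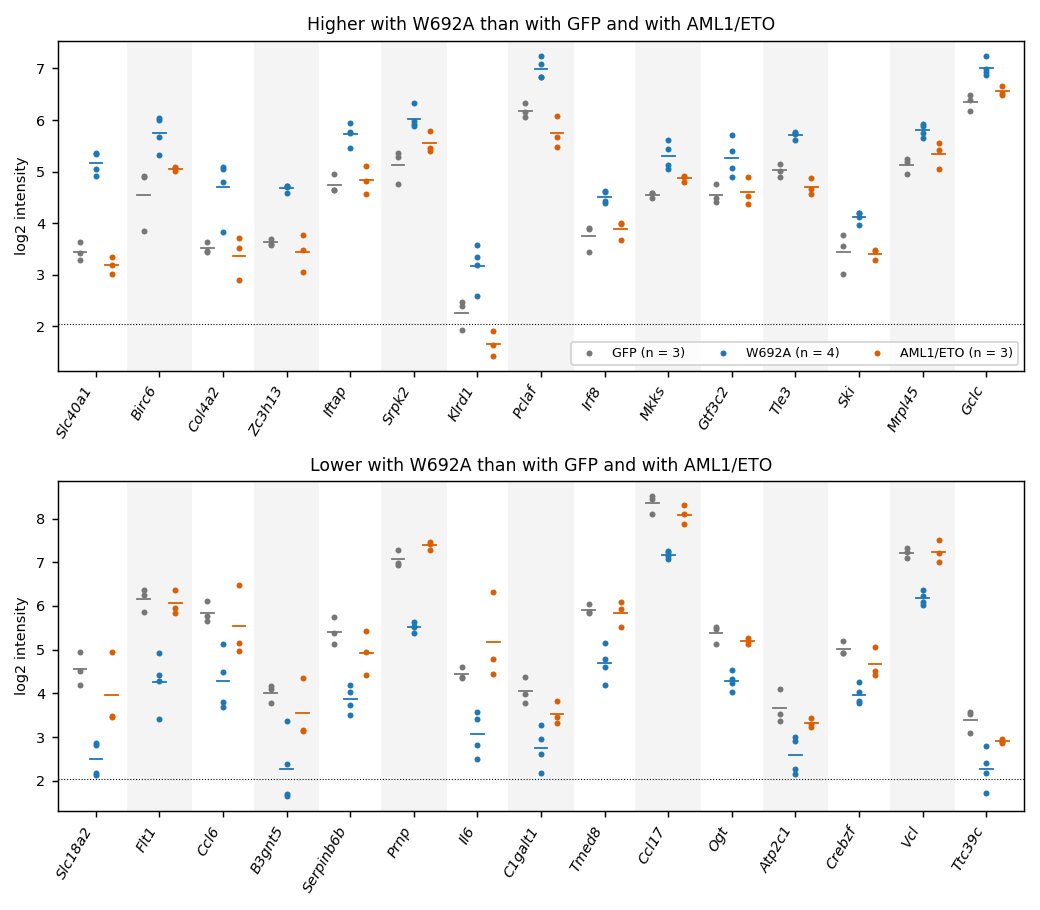
Log2 intensity on every array for the 15 largest rises (upper panel) and 15 largest falls (lower panel) among genes changed with W692A and not with AML1/ETO. Points are arrays, short lines group means, and the dotted line the background bound of 2.04. W692A stands above or below both other groups for most genes, with overlap with AML1/ETO for Gtf3c2, B3gnt5 and Ccl6.

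The falls had larger sizes. Slc18a2, the vesicular transporter that loads histamine and serotonin, read 4.51, 4.95 and 4.18 with GFP and 2.82, 2.13, 2.17 and 2.85 with W692A, 4.16-fold lower. Its AML1/ETO values were 3.45, 3.49 and 4.95, of which replicate 3 lay at the GFP level and the other two lay between. Flt1, a receptor for VEGF, read 5.86, 6.25 and 6.36 with GFP, 4.27, 4.91, 3.41 and 4.41 with W692A, and 5.96, 5.85 and 6.37 with AML1/ETO. It was 3.74-fold lower than with GFP (adjusted p = 0.000149), the AML1/ETO difference was -0.10, and 2 of 3 other probe sets passed in the same direction. Prnp, the prion protein of the cell surface, read 7.28, 6.94 and 6.97 with GFP, 5.64, 5.53, 5.37 and 5.53 with W692A, and 7.42, 7.27 and 7.46 with AML1/ETO. It was 2.93-fold lower (adjusted p = 4.71e-07), while its other probe set differed by 0.06 and did not pass.

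Several chemokines and cytokines were among the falls. Ccl17, a chemokine that draws T cells, read 8.52, 8.11 and 8.44 with GFP, 7.24, 7.13, 7.25 and 7.08 with W692A, and 8.30, 7.86 and 8.11 with AML1/ETO. It was 2.27-fold lower with W692A and apart from both groups. Il6 read 4.38, 4.61 and 4.35 with GFP and 3.58, 3.42, 2.50 and 2.82 with W692A, 2.57-fold lower, but its AML1/ETO values ran from 4.44 to 6.31, its call was lost without GFP replicate 1 or 2, and its sign turned with the covariate. Ccl6 fell 2.98-fold, and with the covariate its difference went from -1.57 to -0.08 (adjusted p = 0.974). Outside the 15, Ccl3 (1.57-fold lower), Rel (1.62-fold), Relb (at least 1.55-fold) and Tnfaip3 met the same rule, although the calls of Ccl3, Rel and Relb were lost without GFP replicate 1 and without W692A replicate 4. Tnfaip3 read 7.07, 6.89 and 6.95 with GFP, 6.27, 5.97, 6.00 and 6.16 with W692A, and 7.38, 7.05 and 7.13 with AML1/ETO.

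The other falls among the 15 were of enzymes, an adhesion protein and genes of various roles. B3gnt5, which starts lacto-series glycolipids, fell at least 2.95-fold, C1galt1, which builds the core of O-glycans, 2.46-fold, and Ogt, which adds N-acetylglucosamine to nuclear proteins, 2.14-fold. Ogt read 5.47, 5.51 and 5.13 with GFP, 4.52, 4.33, 4.03 and 4.23 with W692A, and 5.26, 5.14 and 5.20 with AML1/ETO. None of its 4 other probe sets passed, and with the mean of its probe sets the call was lost (-0.22, adjusted p = 0.212). Vcl, or vinculin of cell adhesions, read 7.24, 7.31 and 7.10 with GFP, 6.22, 6.09, 6.37 and 6.03 with W692A, and 7.00, 7.21 and 7.50 with AML1/ETO, 2.06-fold lower than with GFP. Serpinb6b fell 2.93-fold, Tmed8 2.35-fold, Atp2c1, a Golgi calcium pump, 2.12-fold, Crebzf 2.06-fold and Ttc39c at least 2.06-fold.

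A second kind of difference was a change in the same direction as AML1/ETO but larger. Besides Csf1r and Elane, Sav1, a scaffold of Hippo signalling, read 5.16, 5.38 and 5.29 with GFP, 4.23, 3.92, 3.82 and 4.14 with W692A, and 4.74, 4.94 and 4.91 with AML1/ETO. Smpd1, the acid sphingomyelinase, read 4.52, 4.45 and 4.40 with GFP, 3.36, 3.16, 3.19 and 3.19 with W692A, and 4.12, 3.92 and 4.04 with AML1/ETO. The W692A arrays lay below both groups for each gene, and the differences from AML1/ETO were -0.84 and -0.80 (adjusted p = 0.000176 and 6.45e-05). Ptpro, a receptor phosphatase, fell 4.19-fold against 2.04-fold, Atp8b4 4.34-fold against 2.60-fold, Slc14a1, a urea transporter, 6.97-fold against 3.88-fold, Zfp82 2.53-fold against 1.35-fold and Rnf19a 2.72-fold against 1.68-fold. Rises of this kind were smaller: Gchfr, which regulates tetrahydrobiopterin synthesis, rose 2.37-fold against 1.66-fold, Pfdn1 2.50-fold against 1.77-fold, Rsrc2 2.02-fold against 1.46-fold, Rere 1.77-fold against 1.31-fold and Krt80 at least 1.99-fold against at least 1.28-fold.

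Other genes passed in opposite directions against the same GFP arrays. Samd9l, an interferon-induced growth suppressor, read 6.60, 6.20 and 6.22 with GFP, 5.66, 5.49, 5.21 and 5.26 with W692A, and 8.08, 7.39 and 8.02 with AML1/ETO. Il6ra, the IL-6 receptor, read 3.17, 3.07 and 2.98 with GFP, 3.47, 3.93, 4.06 and 4.18 with W692A, and 1.89, 2.26 and 2.44 with AML1/ETO. The GFP arrays lay between the constructs for both, and the constructs differed by -2.42 and 1.71 (adjusted p = 1.82e-07 and 4.00e-06). Spsb1 fell 2.17-fold with W692A and rose 1.69-fold with AML1/ETO, Perp, a p53 target of cell junctions, fell 2.11-fold and rose 1.82-fold, and Arhgap29 fell 2.04-fold (not as the mean of its probe sets) and rose 2.09-fold. Mmp2, a gelatinase, fell at least 1.65-fold (not without GFP replicate 3) and rose 1.75-fold, and Tex2 fell 1.68-fold and rose 1.48-fold. Snrpd3, a core protein of the spliceosome, rose 1.92-fold (not as the mean of its probe sets) and fell 1.32-fold.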

How the data were processed

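RNA of 10 samples was read on Affymetrix mouse expression arrays. The authors deposited log2 values per probe set made with RMA, per the submitters' processing notes. The base of the logarithm is not stated in the sources used here: read as base 2 the highest value is an intensity of 6967, and read as natural log it would be 350219, past the 16-bit scanner limit of 65535. Of 45101 probe sets, 34945 with 1 gene symbol were used, and of the probe sets of each of 18193 genes the one with the greatest average across the 10 arrays was taken. Symbols were updated through RefSeq GRCm38.p6 for 34741 probe sets. The 3 groups were fitted together without covariates in limma 3.58.1 (R 4.3.3, Python 3.11.15), with 7 residual and 7.53 prior degrees of freedom and Benjamini-Hochberg adjustment over 18193 genes at a threshold of 0.05. On simulated data for W692A against GFP, with 100 of 18193 genes changed per size, 84% of 2-fold and 40% of 1.5-fold changes were recovered. The changed genes were all above the bound with GFP, far fewer genes changed than in the data, and noise was independent between arrays. No difference of RNA quality was built in, so these rates may not hold for the real comparison. The number of arrays limits the precision, and intensities give no count depth. Both constructs are compared with the same GFP arrays. The genes named are the 20 largest rises and falls, the 15 largest each way among genes changed with W692A and not with AML1/ETO, the 8 with the largest excess over AML1/ETO each way, the 8 opposite changes, up to 4 called members of each of 32 lists each way, and a fixed set of regulators. The 20 each way were taken from genes that passed and whose GFP and W692A arrays did not overlap. The sets of 15 and 8 needed a W692A or GFP mean above the bound. Genes with provisional names, such as clone numbers, were left out of the sets of 20, 15 and 8. Sizes were ranked with values below the bound set to it. Cd34, Slamf1, Vim, Gimap1, Gimap3, Gimap5, Gimap7 and markers below the bound are named besides, after their values were seen. These genes and lists were chosen with earlier results of these data known. Alternatives were the probe set rule, a filter on dim genes, scaling, the prior, the fit, the replicate block, the Gapdh covariate, the threshold and leaving out each array. Ly6a, which encodes Sca1, is not analysed here.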

Additional observations from a re-analysis of the deposited data

Results flagged for a closer look

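Of 233 named genes, 14 had 1 W692A array whose gap to the nearest other, as a share of the range of the 4, was above Dixon's critical value. Chance alone gives about 1 in 20 genes, so this number is near what chance gives. The array was replicate 1 for 5 genes: Gata2 at 5.25, Gimap6 at 4.92, Hoxa9 at 7.50, Runx1t1 at 0.86, below the background bound, and Smpd1 at 3.36. Replicate 2 stood apart for Nsa2 at 5.54 and Pim3 at 7.63. Replicate 3 did so for Slc14a1 at 2.09 and Vegfc at 6.51. Replicate 4 did so for 5 genes: Socs2 at 8.53, Srebf2 at 4.35, Tex2 at 3.66, Xbp1 at 10.83 and Zc3h13 at 4.58. The cause was not tested.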

How the results depend on the processing

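Leaving out 1 array at a time, W692A changed 1774 to 2615 genes (651 to 974 higher, 1123 to 1641 lower), AML1/ETO 4477 to 5319, and 2943 to 3777 differed between the constructs. The genes changed with W692A and not with AML1/ETO numbered 156 to 282 (44 to 88 higher, 112 to 207 lower). With the Gapdh covariate the counts were 506 (230 higher, 276 lower) and 38 (6 higher, 32 lower), of which 457 and 17 were among the 2642 and the 242. At an adjusted p under 0.01 they were 1451 (517 higher, 934 lower) and 85 (26 higher, 59 lower), and 2410 genes differed between the constructs. Quantile normalization gave 144 higher genes changed with W692A and not with AML1/ETO, and subtracted array medians 120. Signs turned for Gtf3c2 (-0.0724) and Ptpn21 (0.0029) with the mean of probe sets, and for Camp (0.0724), Il6 (0.0897), Ngp (0.18) and Plagl1 (-0.12) with the covariate. Whether replicate numbers pair the samples is not settled. In their deviations from group means, same-numbered samples of different groups correlated at -0.127 to 0.457 over 9 pairs. Differently numbered samples correlated at -0.397 to 0.325 over 24 pairs, and these ranges overlap. With the replicate block 2344 genes changed (889 higher, 1455 lower) and 201 met the rule for W692A and not AML1/ETO (67 higher, 134 lower). Apart from changes built into an alternative (fewer arrays, a stricter threshold), the cause was not tested. Changes near the bound and below 2-fold are the least secure at this number of arrays.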
